A study of Mus musculus with 4 samples.

Results

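The 10 integrin genes described here, Itga4, Itga6, Itgae, Itgal and Itgav for alpha chains and Itgb1, Itgb2, Itgb3, Itgb7 and Itgb8 for beta chains, are those that T cells are best known to use. They were found through the RefSeq accession that the array gives for each probe. All 10 were on the array, among 45526 genes and unnamed transcripts, and 15 probes covered them. The samples were 2 of Irf4-/- and 2 of wildtype CD4+ T cells, all from spleens of male C57BL/6 mice of unstated age. Naive cells (CD62L-positive, CD44-negative) of both genotypes were sorted and then stimulated with 1 µg per ml of antibody to CD3 in the presence of mitomycin C-treated antigen-presenting cells, and living CD4+ cells were sorted for total RNA at day 2. One protocol field among the labels gives shorter culture times than the titles and the design text, which both state day 2. The labels give 2 independent experiments per genotype and do not describe the Irf4 allele. The p-values below rest on the spread between the 2 samples of a genotype, which the fit moderates with that of all genes tested.

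Integrins are adhesion receptors made of an alpha chain paired with a beta chain. On resting lymphocytes they are held in a bent, weakly binding form, and signals from the antigen receptor or chemokine receptors drive the Rap1 GTPase, talin and kindlin onto the beta chain tail and open the receptor. In T cells alphaL beta2 (LFA-1) binds ICAM molecules on antigen-presenting cells and vessel walls, alpha4 beta1 (VLA-4) binds VCAM-1 and fibronectin, alpha4 beta7 binds MAdCAM-1 in gut vessels, alphaE beta7 (CD103) binds E-cadherin on epithelium, and alpha6 beta1 binds laminin. The alphaV integrins bind vitronectin, fibronectin and latent TGF-beta. Irf4 is a transcription factor that the antigen receptor induces.

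Each sample was measured on 1 one-colour array of 62976 spots, and 25677 to 28725 of its 56605 probes exceeded background clearly ("well above background" in the scanner software). A level below is log2 of the processed signal relative to the 75th percentile of its array, and a difference is the level in Irf4-/- cells minus that in wild-type cells. Levels of different genes come from different probes and are not set against each other. The tests covered 20505 genes or transcripts (limma, Benjamini-Hochberg, threshold 0.05), with n = 2 arrays per genotype throughout, and an error after a difference is limma's standard error (SE). The brighter Irf4 probe stood at 4.23 and 4.04 in Irf4-/- cells, against 5.03 and 4.74 in wild-type cells (difference -0.75, limma adjusted p = 0.231). The other Irf4 probe differed by -0.37. Both were above background on all 4 arrays, so transcript was still detected. The sources used here do not describe the allele, so whether either probe falls in an altered part of the gene is not known. The T cell label was checked on its markers: all 10 T cell marker genes, among them Cd3e, Cd4 and Lck, were above background on every array, while of 6 platelet and megakaryocyte markers 5 were below it on all arrays. Markers of other cells were above background on all arrays too, namely 5 of 8 for B cells and 3 of 9 for myeloid cells (Csf1r, Cd68 and Mpeg1). For dendritic cells there were 4 of 7 (among them Siglech), and for erythroid cells 2 of 4 (Hba-a1 and Klf1). For NK cells there was 1 of 5 (Klrk1), and for CD8 T cells 1 of 2 (Cd8b1). The other CD8 marker, Cd8a, was above background on 1 array of each genotype and was not tested. It was at -3.67 and -4.99 in Irf4-/- cells, against -4.00 and -4.34 in wild-type cells. Cd8b1 was at 2.23 and 2.14 in Irf4-/- cells, against 3.12 and 3.21 in wild-type cells (limma adjusted p = 0.0979). Of all these markers only Batf3, listed for dendritic cells and also made by activated T cells, passed the test (difference -3.63, limma adjusted p = 0.0318). The part of such cells in the integrin results was not tested. In a sorted population such as this, fewer cells that carry a transcript and less transcript per cell cannot be told apart.

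Transcripts of the alpha4 and alpha6 chains were higher and those of the beta1 chain lower in Irf4-/- cells, each by about the same amount on the log2 scale. None of the 3 genes passed the test over all genes. Itga4, the alpha chain of VLA-4 and of the gut-homing receptor, was at 2.67 and 2.54 in Irf4-/- cells, against 1.99 and 1.56 in wild-type cells. Both Irf4-/- arrays lay above both wild-type arrays, by 0.55 at the nearest. The difference was 0.83 ± 0.22 (SE), a ratio of 1.77 (95% interval 0.27 to 1.39 on the log2 scale, limma adjusted p = 0.230). Itga6, the laminin-binding alpha chain, was at 4.54 and 4.47 in Irf4-/- cells, against 3.80 and 3.54 in wild-type cells, again with no overlap. Its difference was 0.83 ± 0.19 (SE), a ratio of 1.78 (95% interval 0.35 to 1.31, limma adjusted p = 0.171).

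Itgb1, the beta chain that alpha4, alpha6 and alphaV can all pair with, was at 3.53 and 3.08 in Irf4-/- cells, against 4.31 and 4.01 in wild-type cells. Both Irf4-/- arrays lay below both wild-type arrays. The difference was -0.86 ± 0.24 (SE), or 1.81-fold lower (95% interval -1.47 to -0.25, limma adjusted p = 0.25). Of all genes tested, 7.42% differed by more than Itgb1 in either direction, 7.72% by more than Itga6 and 7.80% by more than Itga4. With limma's trend and robust settings all 3 passed (adjusted p = 0.0107 for Itga6, 0.0197 for Itga4 and 0.0241 for Itgb1), where 3.89% of all genes did. They also passed with another background correction, normexp (0.0395, 0.0395 and 0.0262), where 3.79% of all genes did, and in none of the other settings run.

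**Figure D1:**
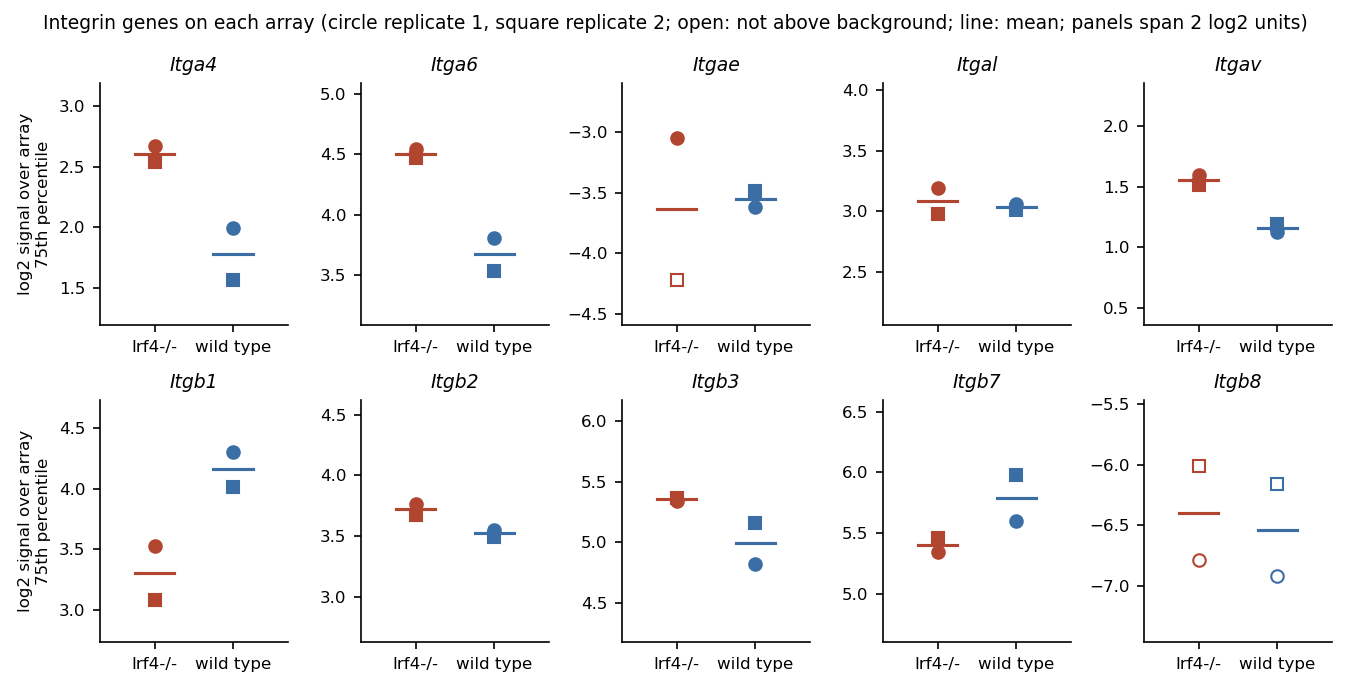
Level of each integrin gene on each array (log2 signal over the array's 75th percentile, y axis), with Irf4-/- samples left and wild-type samples right. Circles are replicate 1, squares replicate 2, open symbols were not well above background, and lines are means of n = 2. Itga4 and Itga6 were higher and Itgb1 lower on both Irf4-/- arrays, whereas the Itgal and Itgae arrays overlapped and Itgb8 was open throughout.

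The opposite directions of Itga4 and Itgb1, which encode the chains of VLA-4, are why their promoters are shown. RefSeq promoter windows (GRCm38.p6, 250 bases before and 50 after the start) were at hand for 5 of the 10 genes, Itga4, Itgav, Itgb1, Itgb7 and Itgb8. The 250 bases before the start are printed on the strand of the gene, which is the plus strand for both. Capitals mark GAAA, the core that Irf4 reads within its composite sites, or TTTC where it lies on the other strand. The Itga4 bases are chr2:79255176-79255425 and the Itgb1 bases chr8:128685404-128685653.
Itga4: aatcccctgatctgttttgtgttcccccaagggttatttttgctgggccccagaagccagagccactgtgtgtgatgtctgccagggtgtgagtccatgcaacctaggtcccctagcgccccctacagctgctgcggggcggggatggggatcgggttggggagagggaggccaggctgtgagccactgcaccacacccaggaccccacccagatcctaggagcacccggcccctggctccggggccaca
Itgb1: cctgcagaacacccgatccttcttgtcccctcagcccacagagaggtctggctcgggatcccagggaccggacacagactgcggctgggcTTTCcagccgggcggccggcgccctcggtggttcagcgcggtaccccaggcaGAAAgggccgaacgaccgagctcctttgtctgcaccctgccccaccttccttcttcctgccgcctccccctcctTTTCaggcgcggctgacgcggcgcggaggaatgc

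The Itga4 stretch is 64.0% G or C and holds 0 such cores, and the Itgb1 stretch is 68.0% G or C and holds 3, against a median of 2 over 32851 promoter windows. The core was marked after 6 longer motifs, searched on both strands of the whole windows, gave 0 matches in any of the 5 genes. They were the ETS-IRF site (GGAA, any 2 bases, GAAA), in 2.72% of all windows, and the interferon response core (GAAA, any 2 bases, GAAA), in 3.44%. The AP-1-IRF site of T cells was searched as TTTC, any 4 bases and TGANTNA, found in 0.292% of all windows, and as GAAA directly before TGANTNA, in 0.399%. The AP-1 site TGANTCA occurred in 7.81% of all windows and the RUNX site TGTGGTT in 5.27%. These are matches of letters in a short window and leave out distant enhancers.

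The 4 genes measured by more than 1 probe differed in the same direction on each probe. The other Itga4 probe stood at -2.40 and -2.67 in Irf4-/- cells, against -3.51 and -3.57 in wild-type cells, a difference of 1.00 in place of 0.83. For Itga6 the next probe stood at 3.48 and 3.37 in Irf4-/- cells, against 2.62 and 2.34 in wild-type cells (difference 0.94), and the dimmest, above background on 1 array of each genotype, differed by 0.63. The other Itgb1 probe stood at 1.28 and 0.85 in Irf4-/- cells, against 2.16 and 1.84 in wild-type cells, a difference of -0.94. In a fit over all 26331 probes above background, 1.01% were called and none of the integrin probes was. Their smallest adjusted p was 0.104, for the other Itga4 probe (limma).

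**Figure D2:**
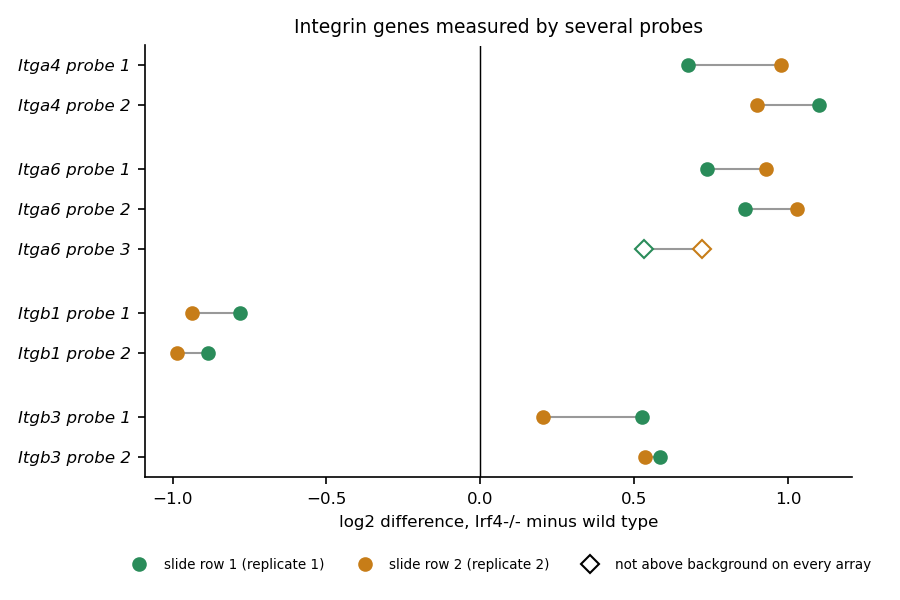
Difference between genotypes (Irf4-/- minus wild type, log2, x axis) for each probe of the 4 integrin genes with several probes, given separately for slide row 1 (green) and slide row 2 (orange), which hold replicates 1 and 2. Probes of a gene are numbered from bright to dim, and open diamonds mark the probe not above background on every array. All Itga4, Itga6 and Itgb3 points lie right of 0 and all Itgb1 points left of it.

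The 4 arrays lay on 1 slide, with replicate 1 of both genotypes in row 1 and replicate 2 of both in row 2, so the difference can be read within each row. It was 0.67 and 0.98 for Itga4 in rows 1 and 2, 0.74 and 0.93 for Itga6, and -0.78 and -0.94 for Itgb1. The sign held in both rows for 7 of the 9 integrin genes tested. These are the same genes whose arrays did not overlap between genotypes. Without overlap the sign within each row is fixed, so it adds nothing to that count. The Irf4-/- arrays occupied slide columns 3 and 2 and the wild-type arrays shared column 1, so slide column and genotype cannot be told apart.

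Transcripts of the alphaV and beta3 chains, which form the vitronectin receptor, were higher in Irf4-/- cells by smaller amounts, and that of beta7 was lower. Itgav was at 1.60 and 1.51 in Irf4-/- cells, against 1.12 and 1.19 in wild-type cells. The genotypes did not overlap, and the difference of 0.40 ± 0.17 (SE, 95% interval -0.03 to 0.83) did not pass (limma adjusted p = 0.489). Itgb3, which pairs with alphaV here and with the platelet chain alphaIIb elsewhere, was at 5.35 and 5.37 in Irf4-/- cells, against 4.82 and 5.16 in wild-type cells (difference 0.36, limma adjusted p = 0.629). Wild-type replicate 1 was the lowest of these 4 arrays, and without it the difference was 0.19. The other Itgb3 probe stood at 0.02 and -0.05 in Irf4-/- cells, against -0.56 and -0.59 in wild-type cells, with tighter replicates and a larger difference (0.56, adjusted p = 0.257 over all probes). Itga2b, the platelet partner of beta3, was above background on 1 Irf4-/- array only.

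Itgb7, the beta chain of both gut-homing and epithelial receptors, was at 5.35 and 5.46 in Irf4-/- cells, against 5.60 and 5.98 in wild-type cells. The Irf4-/- arrays were the lower pair, with a gap of 0.14 at the nearest and a difference of -0.39 ± 0.21 (SE, 95% interval -0.92 to 0.14, limma adjusted p = 0.623). Leaving out wild-type replicate 2 brought the difference to -0.20, and leaving out wild-type replicate 1 to -0.57.

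The LFA-1 chains showed the smallest differences among genes above background on every array. Itgal, the alphaL chain, was at 3.19 and 2.98 in Irf4-/- cells, against 3.06 and 3.01 in wild-type cells. The wild-type arrays fell between the Irf4-/- arrays, and the difference was 0.05 ± 0.18 (SE, 95% interval -0.41 to 0.51, limma adjusted p = 0.984). It was -0.061 when arrays were scaled on their median. That interval allows a change of up to 0.51 in log2 and does not show equal levels. Itgb2, the beta chain that alphaL shares with the myeloid integrins, was at 3.77 and 3.68 in Irf4-/- cells, against 3.55 and 3.50 in wild-type cells (difference 0.20, limma adjusted p = 0.823). The genotypes stood apart by 0.13.

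The alphaE chain gene was near the limit of detection. Itgae was at -3.05 on Irf4-/- replicate 1 and -4.22 on Irf4-/- replicate 2, where it was not well above background, against -3.62 and -3.49 in wild-type cells. The Irf4-/- arrays lay on both sides of the wild-type arrays, so the difference of -0.08 ± 0.41 (SE, limma adjusted p = 0.989) had no settled sign; it was 0.57 in slide row 1 and -0.73 in row 2. Itgb8, whose product with alphaV activates latent TGF-beta, was not well above background on any array, at -6.78 and -6.01 in Irf4-/- cells, against -6.92 and -6.16 in wild-type cells. It was not tested, and a difference was not detectable at this signal.

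**Figure D3:**
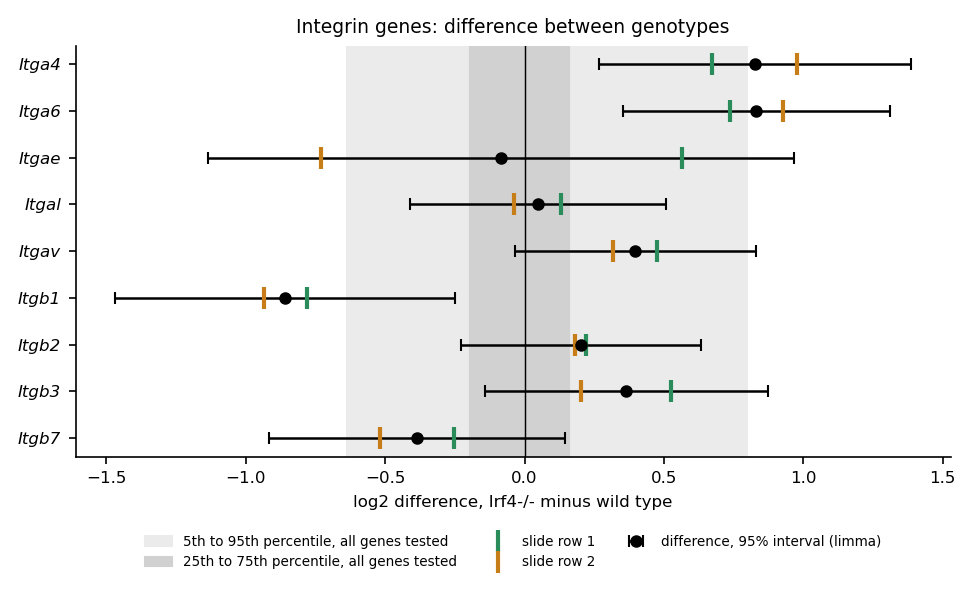
Difference in level between genotypes (Irf4-/- minus wild type, log2, x axis) for the 9 integrin genes tested, as points with limma's 95% intervals, with the differences within slide rows 1 and 2 as ticks. The shading spans the 5th to 95th percentile (-0.64 to 0.80) and the 25th to 75th percentile (-0.20 to 0.16) of all 20505 genes tested. The intervals of Itga4, Itga6 and Itgb1 do not cross 0 before adjustment, and none of the 9 passed after it.

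Counted together, 0 of the 9 integrin genes tested passed over all genes, where 0.736% of all genes tested did, 0.493% higher and 0.244% lower. At an unadjusted p under 0.05 there were 3 (Itga4, Itga6 and Itgb1), with 11.4% of all genes tested (limma). The arrays of the 2 genotypes did not overlap for 7 of the 9, against 39.2% of all genes. The Irf4-/- arrays were the higher pair for 5 genes (17.9% of all genes) and the lower pair for 2 (21.3%). The median difference was 0.20 over the 9, and -0.02 over all genes tested. With 2 arrays against 2, an exact two-sided permutation test of a single gene cannot give a p below 0.333, so the across-gene fit is the only test here that could pass.

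Because the chains work in pairs, the differences of partner chains were set beside each other. The gap between such differences does not change when an array is scaled by a constant, and it carries no test. For alpha4 beta1 the alpha chain's difference exceeded the beta chain's by 1.68 (1.45 and 1.91 in slide rows 1 and 2). For alpha6 beta1 the gap was 1.69 (1.52 and 1.86), and for alphaV beta1 it was 1.26 (1.26 and 1.25). Itga4 and its other partner Itgb7 differed by 1.21 (0.93 and 1.495). For the vitronectin receptor the gap was 0.03 (-0.05 and 0.11), and for LFA-1 it was -0.15 (-0.09 and -0.22). In both slide rows the differences of Itgb1 and Itgb7 had the opposite sign to that of Itga4, and those of Itgav and Itgb3 had the same sign. For alphaE beta7 the gap was 0.82 in row 1 and -0.21 in row 2.

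Other integrin subunits were mostly near or below background. Of 16 further integrin genes, 8 were below background on all arrays, among them Itga2, Itga5 and Itgax, and 5 were above it on all arrays. Tests covered 6 of the 16, with none passing (3 higher and 3 lower, median -0.06). Among the lower was Itga10 (difference -1.11), named after its values were seen, which met the filter through its wild-type arrays. Over the 5 genes above background on all arrays the median was 0.19, so the sign of the median depends on the filter. Itgb5, another partner of alphaV, was at -1.46 and -1.19 in Irf4-/- cells, against -3.34 and -2.78 in wild-type cells (difference 1.73, limma adjusted p = 0.0753). Its genotypes were far apart for a low signal, though with normexp the difference was 0.77 (adjusted p = 0.0148). With trend and robust its limma adjusted p was 0.00937. Itga7, a laminin-binding partner of beta1, was at 2.26 and 2.01 in Irf4-/- cells, against 2.91 and 4.78 in wild-type cells (difference -1.71, limma adjusted p = 0.399). Its wild-type arrays lay 1.88 apart, and without wild-type replicate 2 the difference was -0.77. The limma adjusted p of Itga7 was 0.0270 with normexp and 0.618 with trend and robust. Itga3, also laminin-binding, differed by 0.51 (adjusted p = 0.541). Itgam, of the myeloid integrins and named after its values were seen, was above background on all arrays. It was at 2.64 and 2.76 in Irf4-/- cells, against 2.81 and 3.20 in wild-type cells (difference -0.30, limma adjusted p = 0.755).

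Among 25 genes for integrin ligands, 15 were tested, 1 rose, 1 fell and 13 did not pass, where 0.736% of all genes tested did. The difference was positive for 10, against 46.7% of all genes, with a median of 0.37. The 15 include Fn1 and Spp1, which met the filter through their Irf4-/- arrays, and another gene that met it through its wild-type arrays. The filter favoured the signs of these genes. Over the 12 ligand genes above background on all arrays the median was 0.24. Lrrc32 rose; it encodes GARP, which holds latent TGF-beta on the cell surface, where alphaV integrins can release it. It was at 4.73 and 5.00 in Irf4-/- cells, against 3.14 and 3.01 in wild-type cells, 3.47-fold higher (limma adjusted p = 0.0428). Lamc1, the gamma1 chain of most laminins, which alpha6 beta1 binds, fell by 2.99 on the log2 scale. It was at -2.94 and -2.40 in Irf4-/- cells, against 0.01 and 0.63 in wild-type cells (limma adjusted p = 0.0405). Both pairs of arrays were well separated, but neither call survived without wild-type replicate 1 (adjusted p = 0.135 for Lrrc32 and 0.0995 for Lamc1) or wild-type replicate 2 (0.181 and 0.136), and that of Lrrc32 was also lost without Irf4-/- replicate 2 (0.0597). With the difference as large or nearly so, both calls were lost with quantile normalization (0.0858 for Lrrc32 and 0.0859 for Lamc1), with no filter (0.523 and 0.464), with the replicate block (0.117 and 0.0967) and with the percentile over detected probes (0.0689 and 0.0788). With normexp the Lamc1 difference was -1.76. The list had 4 calls without Irf4-/- replicate 1.

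Several other ligand genes differed without passing, though some passed in other settings. Mfge8, a bridging ligand of alphaV integrins, was at 5.12 and 5.32 in Irf4-/- cells, against 4.43 and 4.28 in wild-type cells (difference 0.86, limma adjusted p = 0.152). Its limma adjusted p was 0.0104 with normexp and 0.00900 with trend and robust. Tgfb3 (0.71) and Lama5 (0.48), the alpha5 chain of laminins, each turned to -0.067 without wild-type replicate 1. Fn1 and Spp1, picked after their values were seen, encode fibronectin and osteopontin, which alpha4 beta1 and alphaV integrins bind. Fn1 was above background on both Irf4-/- arrays (-2.67 and -1.52) and on neither wild-type array (-5.03 and -6.04). For this probe and the processed signal only, that is at least 5.09-fold higher in Irf4-/- cells. The fitted Fn1 difference uses the wild-type background values and did not pass (limma adjusted p = 0.0753). Spp1 was at 1.91 and -0.74 in Irf4-/- cells, against -3.81 and -5.32 in wild-type cells, where replicate 2 was not above background. The difference of the measured values, 5.15, did not pass (limma adjusted p = 0.123) and has a background value on one side. Both genes met the filter through their Irf4-/- arrays. With normexp the differences were 0.69 for Fn1 (limma adjusted p = 0.113) and 2.48 for Spp1 (0.00438), and over all Fn1 probes the mean was 1.27. With trend and robust the limma adjusted p was 0.00370 for Fn1 and 0.271 for Spp1. These fits use wild-type background values too. Both genes are also made by macrophages. Of 9 myeloid markers on the array, 4 were tested and 3 of these were higher in Irf4-/- cells, none passing. Mpeg1 was at -0.82 and -0.03 in Irf4-/- cells, against -1.29 and -2.06 in wild-type cells. Cd68 was at -1.10 and -1.15 in Irf4-/- cells, against -1.76 and -1.70 in wild-type cells, so that neither gene overlapped between genotypes. Csf1r differed by 0.0071, and Lyz2, Adgre1 and Fcgr3 were below background on all arrays. C1qb, the tested marker that was lower, was near background and above it on 1 Irf4-/- array. It was at -3.67 and -4.55 in Irf4-/- cells, against -3.52 and -3.47 in wild-type cells (difference -0.62), again with no overlap. The markers' summed signal, to which Csf1r gave the most, on the log2 scale of the levels, was 2.46 and 2.18 in Irf4-/- cells, against 2.36 and 1.89 in wild-type cells, so the genotypes overlapped. For 8 B cell markers it was 2.07 and 0.63 in Irf4-/- cells, against 1.16 and 0.26 in wild-type cells, with 5 of 6 tested genes higher and none passing. The part of such cells in the ligand results was not tested.

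**Figure D4:**
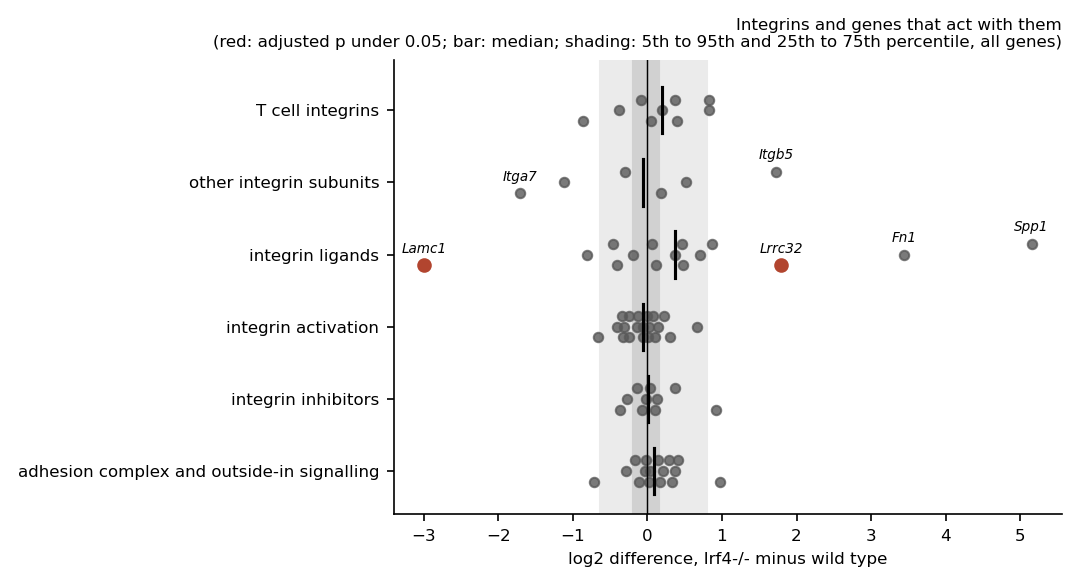
Difference between genotypes (Irf4-/- minus wild type, log2, x axis) for each tested gene of the T cell integrins and of 5 lists of genes that act with them, with bars at list medians and shading as percentiles of all genes tested. The 2 genes past the threshold, Lamc1 and Lrrc32, are in red. Ligand genes above background on all arrays spread from -2.99 to 1.79. Fn1 and Spp1 lie farther right. Neither wild-type array was above background for Fn1, and wild-type replicate 2 was not for Spp1. The activation list spread from -0.65 to 0.66.

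Of 22 genes for the machinery that opens integrins 20 were tested, none passed, and 8 differences were positive and 12 negative (median -0.06). The arrays of the genotypes did not overlap for 12 of the 20, against 39.2% of all genes. Apbb1ip, encoding the Rap1 effector RIAM that brings talin to the beta chain, was at 3.60 and 3.54 in Irf4-/- cells, against 3.08 and 2.73 in wild-type cells (difference 0.66, limma adjusted p = 0.297, or 0.0447 with trend and robust). Rasgrp2, encoding the exchange factor CalDAG-GEFI that activates Rap1, was at 2.99 and 3.29 in Irf4-/- cells, against 3.65 and 3.95 in wild-type cells (difference -0.65, limma adjusted p = 0.332, or 0.0450 with normexp). The adaptor gene Crk differed by -0.41. The talin gene Tln1 and the kindlin-3 gene Fermt3, whose products bind the beta tail, differed by 0.08 and 0.02. They were named after their values were seen.

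Of 13 genes for inhibitors of integrin activity 10 were tested and none passed (5 positive, median 0.01). Sipa1l1, a relative of the Rap1-inactivating Sipa1, was at -1.43 and -1.02 in Irf4-/- cells, against -2.42 and -1.87 in wild-type cells (difference 0.92, limma adjusted p = 0.288). Sipa1 differed by -0.36 and the tensin gene Tns1 by 0.38, or 0.05 without Irf4-/- replicate 1. Of 19 genes of the adhesion complex 16 were tested and none passed (10 positive, median 0.09). Vcl, which encodes vinculin, was at -0.29 and -0.56 in Irf4-/- cells, against 0.12 and 0.47 in wild-type cells (difference -0.72, limma adjusted p = 0.298). Rsu1 (0.41) and Parva (0.38), both of the complex around integrin-linked kinase, had smaller differences, and that of Parva was 0.05 without Irf4-/- replicate 2.

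The genes whose profile over the 4 arrays lay nearest to that of Itga6, among 12029 named genes above background on every array, were Slc35g1, Maged2 and Trio, at distances of 0.05, 0.05 and 0.07 in log2 units. Those nearest to Itgb1 were St8sia6, Kif13a and Ctdspl, at 0.08, 0.08 and 0.10. The distance is Euclidean over levels centred on each gene's mean. Within 0.25 of Itga6 there were 79 genes and within 0.25 of Itgb1 there were 47, of the 12029.

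**Figure D5:**
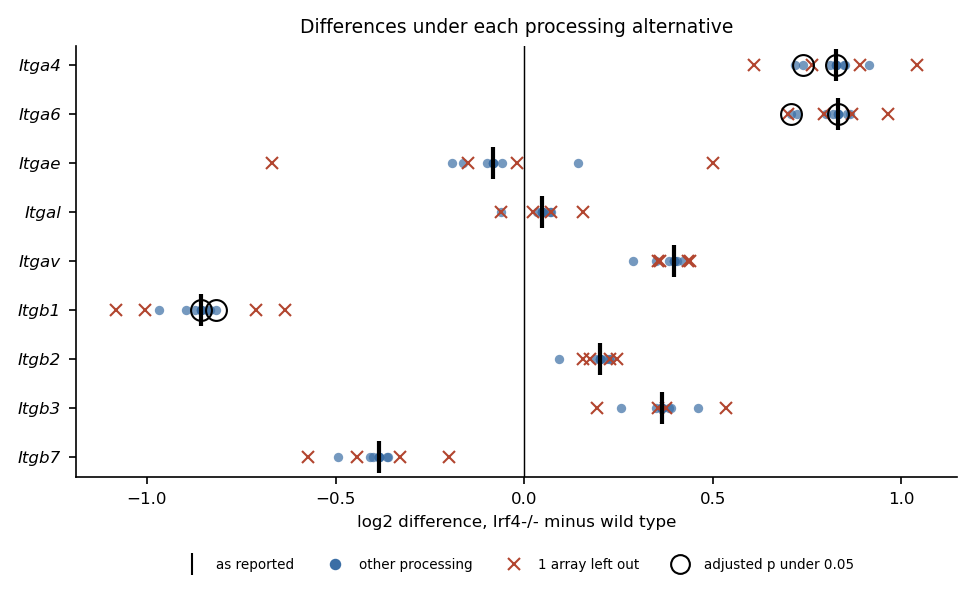
Difference between genotypes (Irf4-/- minus wild type, log2, x axis) of each tested integrin gene as reported (bar), under other processing (blue points) and with 1 array left out (crosses), with rings where the adjusted p was under 0.05. Itga4 and Itga6 stayed right of 0 and Itgb1 left of 0 in all 15 settings, while Itgae and Itgal crossed 0 in 2 settings each.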

How the data were processed

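Total RNA of 2 Irf4-/- and 2 wild-type samples was hybridised to one-colour Agilent arrays whose design names mouse build mm9. The deposited scanner files hold the intensity of each spot, processed by the authors with Agilent Feature Extraction 11.0.1.1 per the file headers (9.1 per the submitters' processing notes). The deposited value table holds log2 values; set against the scanner files, they were scaled on the 75th percentile and centred per gene, and were used as an alternative only. Replicates were numbered in accession order.

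From the processed intensity of non-control, unflagged spots, log2 was taken and the 75th percentile of each array subtracted. Probes were named by accession through RefSeq (GRCm38.p6): 32994 probes gave 22911 symbols, and 23611 stayed unnamed. The brightest probe stood for a gene, and genes well above background on both arrays of either genotype were tested with limma 3.58.1 (R 4.3.3, lmFit and eBayes) and Benjamini-Hochberg adjustment. The fit was tested on simulated data. No spot was saturated. The number of arrays limits the precision.

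The integrin genes and the gene lists were chosen with earlier results of these data known. Named besides the 10 integrin genes were Irf4, the list genes past the threshold, the 3 of each list with the largest difference among genes above background on all 4 arrays, and the 3 nearest profiles. Exceptions among the tested list genes are marked as picked after their values were seen. The cell type markers named besides Batf3, and untested list genes such as Itga2b, were also picked outside this rule. The alternatives were normexp (offset 50, on the median signals, as the files carry no mean signal), median and quantile scaling, other filters, trend and robust, the mean of probes, the value table, a replicate block and each array left out. The percentile over detected probes was added after seeing the data. Protein sequences were not used here.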

Additional observations from a re-analysis of the deposited data

How the results depend on the processing

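Over all genes tested, 101 were called higher and 50 lower in Irf4-/- cells. With normexp the counts were 472 and 306, with median scaling 594 and 448 (the median of all genes moved by -0.11), with quantile normalization 3 and 2, with trend and robust 486 and 311, and with the deposited log2 values 179 and 81. They were 0 and 0 with no filter on dim probes, with the replicate block and with the percentile over detected probes, an alternative chosen after seeing the data. In limma, 2099, 3195 and 2348 genes had an unadjusted p under 0.05 in those 3 fits. With 1 array left out they ran from 0 to 331 higher and from 0 to 156 lower, with 0 without wild-type replicate 1 (1864 at an unadjusted p under 0.05) or wild-type replicate 2 (1678), and 331 and 156 without Irf4-/- replicate 1. Leaving 1 array in a genotype assumes that it varies like the other genotype's pair.

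Of the integrin genes, 2 were called higher and 1 lower with normexp and with trend and robust, and 0 in each other setting, where leaving out arrays gave 0 to 0. Their median difference ran from 0.16 to 0.35 with 1 array left out and was 0.092 with median scaling. Itgae turned to 0.14 with normexp and ranged from -0.67 to 0.50 with 1 array left out, positive without Irf4-/- replicate 2. Itgal turned to -0.061 with median scaling and ranged from -0.060 to 0.16, negative without Irf4-/- replicate 1. Tgfb3 ranged from -0.067 to 1.49 and Lama5 from -0.067 to 1.02, both negative without wild-type replicate 1. The cause was not tested. The other 7 integrin genes tested kept their sign in all settings run.

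Calls among other integrin subunits were 2 with normexp, 3 with median scaling, 1 with trend and robust and 0 to 1 with 1 array left out. Among activation genes they were 1 with normexp and 1 with trend and robust. Among ligands they were 4 with normexp, median scaling or trend and robust, 0 with quantile normalization, no filter, the replicate block or the percentile over detected probes, and 0 to 4 with 1 array left out. The calls with median scaling rest on the common spread described above. With 1 array left out, the median of the other subunits ran from -0.39 to 0.28 and that of the ligands from 0.088 to 0.38. The median of the other subunits was 0.19 over genes above background on all arrays and 0.18 with the mean of probes. Same-numbered samples deviated together across genes (r = 0.348), but the numbers come from accession order and coincide with slide rows, and 2 pairs do not establish a pairing. Itgae and Itgb8 are limited by signal near background.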
